A study of Mus musculus with 12 samples.

Results

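Acyl-CoA thioesterases (Acot genes) were followed in interscapular brown adipose tissue (BAT) of *Txnip*-/- and WT mice at 2 housing temperatures. The 10 members, *Acot1*, *Acot2*, *Acot3*, *Acot4*, *Acot5*, *Acot6*, *Acot8*, *Acot9*, *Acot11* and *Acot13*, were taken by gene symbol from the 25124 genes of the deposited TPM table. *Acot7*, *Acot10* and *Acot12* are not among them and are given with the other thioesterases. TPM (transcripts per 1e6) scales the reads on a transcript to its length and to the library, so that levels can be set side by side between genes. RNA-seq libraries came from 12 male mice at 10 weeks of age, 3 per group, kept for 1 week at 23 °C, called room temperature (RT), or at 30 °C, called thermoneutrality (TN). Each temperature had a WT and a *Txnip*-/- group. The *Txnip*-/- mice lack Txnip in the whole body, so that a difference in BAT need not arise in brown adipocytes, and the line is kept on a C57B/6J background.

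Acyl-CoA thioesterases hydrolyse an acyl-CoA to a free fatty acid and coenzyme A, the reverse of the activation step that acyl-CoA synthetases carry out. In brown fat, fatty acyl-CoA is both fuel for β-oxidation and substrate for lipid storage, and the free fatty acid released also activates uncoupling protein 1. The enzymes differ by place in the cell. ACOT1 (long-chain acyl-CoA) and ACOT11 (also Them1, a thioesterase induced in brown fat by cold) are cytosolic. ACOT2, ACOT9 and ACOT13 (Them2) act at mitochondria, ACOT13 also in the cytosol. ACOT3, ACOT4, ACOT5, ACOT6 and ACOT8 are peroxisomal, with ACOT4 acting on dicarboxylic acyl-CoA such as succinyl-CoA and ACOT8 on a broad range of substrates including bile acid CoA. Several genes of the family are known targets of the fatty acid receptor PPARα in liver.

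Of the 10 genes, 6 lie side by side on the plus strand of chromosome 12, in the order *Acot2*, *Acot1*, *Acot4*, *Acot3*, *Acot5* and *Acot6*, within 121.9 kb (mm10 chr12:83987861-84109783). The other 4 are scattered. *Acot8* is at chr2:164792768-164804881, *Acot9* at chrX:155262443-155297654, *Acot11* at chr4:106744561-106799831 and *Acot13* at chr13:24817955-24831489. The clustered genes are related in sequence. Aligned over their GENCODE transcripts, pairs of them were 66.9% (*Acot2* and *Acot6*) to 82.1% (*Acot3* and *Acot5*) identical, and *Acot1* and *Acot2* 81.7%. Of the windows of 75 bases, the length of a read, 26.4% of those of *Acot1* and 21.2% of those of *Acot2* also occurred in a transcript of another gene, against 16.5% for *Acot3*, 14.5% for *Acot5*, 3.56% for *Acot6* and 1.79% for *Acot4*. Values of *Acot1*, *Acot2*, *Acot3* and *Acot5* are therefore uncertain, since reads from shared stretches cannot be placed. The shares give no exact extent, since the GENCODE transcripts can differ in length from those behind the TPM. For *Acot1* these lengths were 2272 and 1553 bases. *Acot9* shared 7.15% of its windows with *Acot10*, and *Acot8*, *Acot11* and *Acot13* shared none.

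The bases upstream of the start are shown for *Acot1*, *Acot4* and *Acot11*, the genes with the largest differences between temperatures, and for *Acot2*, the neighbour of *Acot1* in the cluster. They are the 250 bases before the RefSeq start (GRCm38.p6), 5′ to 3′ on the strand of the gene, at chr12:84009252-84009501 (plus strand) for *Acot1*, chr12:84038129-84038378 (plus) for *Acot4*, chr4:106799832-106800081 (minus) for *Acot11* and chr12:83987611-83987860 (plus) for *Acot2*. Capitals mark matches, on either strand, to the nuclear receptor half-site AGGTCA, the cAMP response half-site TGACG, the CCAAT box and the TATA motif TATAAA.
Acot1: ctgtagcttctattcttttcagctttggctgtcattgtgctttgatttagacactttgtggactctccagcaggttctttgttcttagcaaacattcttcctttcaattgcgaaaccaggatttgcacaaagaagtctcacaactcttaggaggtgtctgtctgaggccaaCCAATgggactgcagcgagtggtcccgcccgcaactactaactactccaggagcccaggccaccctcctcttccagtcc
Acot4: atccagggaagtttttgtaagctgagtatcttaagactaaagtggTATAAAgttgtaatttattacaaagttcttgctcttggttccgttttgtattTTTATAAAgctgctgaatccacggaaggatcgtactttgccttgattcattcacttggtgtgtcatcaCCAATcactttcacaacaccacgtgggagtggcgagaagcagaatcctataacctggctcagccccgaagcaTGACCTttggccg
Acot11: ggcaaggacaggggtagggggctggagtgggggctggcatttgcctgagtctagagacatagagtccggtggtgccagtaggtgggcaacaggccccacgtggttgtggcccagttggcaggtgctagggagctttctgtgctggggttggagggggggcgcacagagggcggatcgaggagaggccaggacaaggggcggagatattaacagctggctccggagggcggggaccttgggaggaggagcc
Acot2: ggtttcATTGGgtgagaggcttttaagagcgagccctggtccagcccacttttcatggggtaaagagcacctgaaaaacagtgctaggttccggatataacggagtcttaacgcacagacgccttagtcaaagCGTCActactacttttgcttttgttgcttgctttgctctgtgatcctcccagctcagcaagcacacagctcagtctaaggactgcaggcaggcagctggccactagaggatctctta

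AGGTCA was found once in the *Acot4* window, 13 bases before the start on the opposite strand, and in none of the other 3 windows. Of all 32851 RefSeq windows of the same length, 14% hold it. CCAAT, held by 33.8% of all windows, stood 79 bases before the start of *Acot1*, 85 before that of *Acot4* and, on the opposite strand, 244 before that of *Acot2*. TGACG, held by 17.8%, was found only in the *Acot2* window of these 4, on the opposite strand, and TATAAA, held by 12.4%, only in the *Acot4* window, at 3 places of which 2 overlap. None of the 4 windows holds AGGTCA repeated with 1 base between, which 11 of all windows hold, and the *Acot11* window, with a GC content of 65.2%, holds none of these letters. Alike as their transcripts were, the *Acot1* and *Acot2* windows aligned at 55.7% identity over 221 bases, within the range of the other pairs of members. Matches describe these letters only.

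*Txnip* was read in each library as a check of the labels. At RT it had 564, 581 and 694 TPM in WT and 24.8, 26.9 and 35.4 in *Txnip*-/-. The TN libraries had 1238, 1083 and 1072 TPM in WT and 11, 14.4 and 10.5 in *Txnip*-/-. No *Txnip*-/- library reached the level of a WT library. Depth was 29.93 to 47.44 (1e6 reads) per library. The r of log2(TPM + 1) between libraries of a group was 0.9854 to 0.9934. The 10 brown adipocyte markers, none at 0, summed at RT to 29464 to 30382 TPM in WT and 25669 to 30641 in *Txnip*-/-, and at TN to 21028 to 22689 and 17945 to 19781. Macrophage markers summed to 50.4 to 55.1 (RT WT), 85.6 to 151 (RT *Txnip*-/-), 115 to 208 (TN WT) and 338 to 463 TPM (TN *Txnip*-/-), and skeletal muscle markers to 2.35 to 2.89, 17.9 to 43.6, 2.32 to 14.5 and 2.9 to 14.4 TPM, so that the 3 RT *Txnip*-/- libraries held more muscle RNA than any other.

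Levels spanned more than 3 orders of magnitude among the members. *Acot13* was the most abundant in every group, with a mean over the 12 libraries of 236 TPM, rank 360 of all genes. *Acot11* followed with 85.7, *Acot2* with 46.1, *Acot9* with 40.6, *Acot8* with 16.2, *Acot1* with 5.13, *Acot4* with 4.95 and *Acot6* with 2.62. The remaining *Acot3* (0.401) and *Acot5* (0.107) were below the mean of 1 TPM required for testing. In RT WT the order was *Acot13*, *Acot11*, *Acot9*, *Acot2*, *Acot8*, *Acot4*, *Acot1*, *Acot6*, *Acot3* and *Acot5*, where *Acot9* and *Acot2*, and *Acot4* and *Acot1*, overlapped in their 3 libraries and all other neighbours did not. At TN, *Acot1* stood eighth in both genotypes, behind *Acot6*, and *Acot11* came near *Acot9* in TN WT (48.7 and 43.4 TPM, ranges apart) and *Acot2* in TN *Txnip*-/- (45.8 and 41.5 TPM, ranges overlapping).

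**Figure D1:**
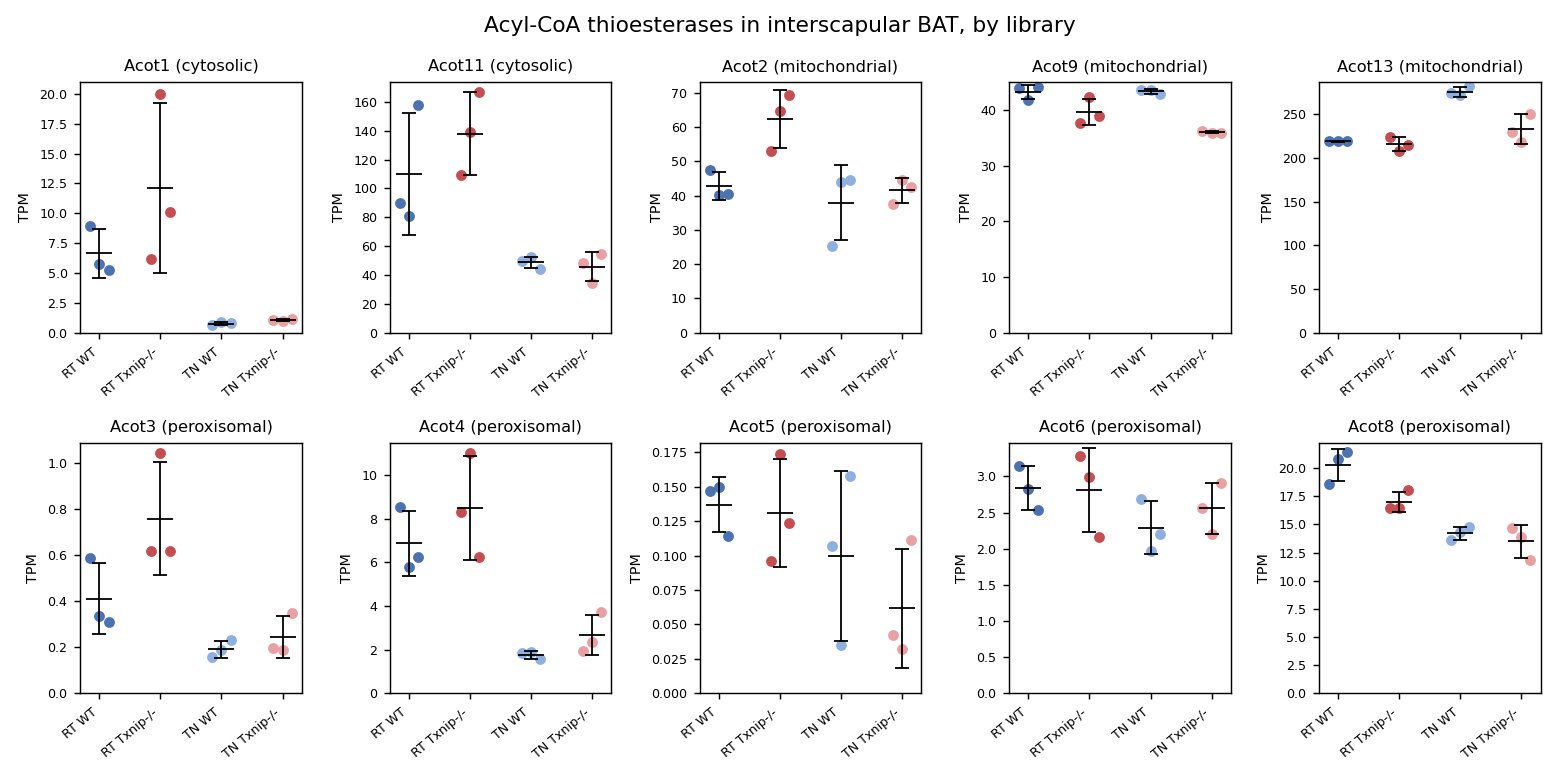
TPM of each of the 10 thioesterases in each library (points), with the mean (long bar) and SD (n = 3) of the 4 groups; each panel has its own axis from 0. *Acot1*, *Acot4* and *Acot11* lie lower in all 6 TN libraries than in any RT library, whereas *Acot9* and *Acot6* stay within 35.9 to 44.2 and 1.97 to 3.28 TPM.

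The first comparison was that of the temperatures within each genotype, tested in 1 fit of all 12 libraries with limma on log2(TPM + 1), with Benjamini-Hochberg adjustment over all genes tested. Calls needed an adjusted p under 0.05 and a fold below 0.8 or above the reciprocal of 0.8. Of the 8 members tested, 5 were called in WT, where 37.8% of all genes tested were called. *Acot1*, *Acot4*, *Acot8* and *Acot11* were lower at TN and *Acot13* was higher. Calls to lower expression made up 6.39% of all genes and calls to higher 31.4%. Between the *Txnip*-/- groups 4 members were called, all lower (*Acot1*, *Acot2*, *Acot4* and *Acot11*), where 39.2% of all genes were called, 8.27% lower and 30.9% higher. The median gene was 0.18 higher (log2) at TN in WT and 0.15 higher in *Txnip*-/-, so that a change near these values is small relative to the rest of the table. These shares depend on the scaling. With each library centred on its median gene, 14.7% of all genes were called lower and 15.4% higher in WT, where 5 members were lower and none higher, and 19.5% and 18.4% in *Txnip*-/-, where 5 members were lower and none higher. In tissue RNA, fewer cells of a type and less RNA per cell cannot be told apart. The labels name no batch, and a batch that followed temperature could not be told apart from it. The groups did not overlap for 5 of the 8 members in WT (57.5% of all genes) and 6 in *Txnip*-/- (61.1%). Macrophage markers were called higher at TN in 7 of 8 genes in WT and 8 of 8 in *Txnip*-/-. Endothelial markers were called higher in 4 and 5 of 5, and lymphocyte markers in 3 and 4 of 4 tested. Brown adipocyte markers were called lower in 6 and 7 of 10. Skeletal muscle markers were called in none of 5 in WT and lower in 5 of 5 in *Txnip*-/-. The part of these shifts in the members' differences was not tested.

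Among the cytosolic enzymes, *Acot1* (NM_012006), which acts on long-chain acyl-CoA, had 8.96, 5.71 and 5.22 TPM in RT WT against 0.625, 0.862 and 0.771 in TN WT. The *Txnip*-/- libraries had 6.17, 20 and 10.1 TPM at RT and 1.02, 1.00 and 1.16 at TN. The TN libraries of both genotypes were far below every RT library, and replicate 2 of RT *Txnip*-/- was the highest of all. The means fell 8.81-fold in WT and 11.4-fold in *Txnip*-/-. On the log2(TPM + 1) scale, which understates the change of a gene at this level, *Acot1* was lower by 2.09 (log2 fold change −2.09, SE 0.30, limma adjusted p = 0.000329) in WT and had a log2 fold change of −2.52 (SE 0.30, limma adjusted p = 6.19e-05) in *Txnip*-/-. *Acot1* entered this fit through its RT level, since its mean in TN WT was 0.753 TPM.

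*Acot11* (NM_025590) had 90.1, 81.1 and 158 TPM in RT WT and 49.5, 52.3 and 44.4 in TN WT. Without Txnip it had 109, 139 and 167 TPM at RT and 48.5, 34.3 and 54.4 at TN. The temperatures did not overlap in either genotype, and the RT WT libraries spread the widest, with replicate 3 well above the others. The log2 fold change was −1.10 (SE 0.24, limma adjusted p = 0.00323) in WT and −1.58 (SE 0.24, limma adjusted p = 0.000277) in *Txnip*-/-.

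The value of *Acot11* may not be that of 1 gene alone. *Fam151a*, on the opposite strand, shares 1263 exon bases with it, 22.2% of the GENCODE *Acot11* transcript and 65.7% of the *Fam151a* transcript, and the strand setting of the counting is not given in the sources used here, so that reads of either gene may be counted in the other. The TPM of *Fam151a* followed that of *Acot11* with r = 0.999 over the 12 libraries, and r = 0.99 after the group means were taken off. Multiplied by transcript length, the *Fam151a* values amounted to 23.8% to 26.4% of those of *Acot11* in every library. Since this share was nearly constant, taking it off leaves the log2 fold change of *Acot11* close to where it was by construction. The log2 fold changes of *Fam151a* were −1.05 in WT and −1.49 in *Txnip*-/-, and which of the genes the shared reads come from cannot be told apart. Over all alternatives the limma adjusted p of *Acot11* was 0.00222 to 0.0131 in WT and 0.0002 to 0.00168 in *Txnip*-/-. The other genes most like *Acot11* over the 12 libraries were *Mrpl50* (r = 0.985) and *Rmdn3* (r = 0.967), of 12485 compared.

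Of the mitochondrial enzymes, *Acot13* (NM_025790), the most abundant, had 219.6, 219 and 220.1 TPM in RT WT and 274, 272 and 283 in TN WT. The corresponding *Txnip*-/- libraries had 224, 208 and 215 TPM at RT and 230.2, 218 and 251 at TN. The TN WT libraries stood above those of every other group, and the *Txnip*-/- libraries of both temperatures overlapped. The log2 fold change at TN was 0.33 (SE 0.06, limma adjusted p = 0.000944) in WT and 0.11 (SE 0.06, limma adjusted p = 0.13) in *Txnip*-/-. The WT call rests on the scaling. With each library centred on its median gene the difference was 0.149 (limma adjusted p = 0.0627) and not called, and in *Txnip*-/- it turned to −0.0785. After upper-quartile normalization the WT difference was 0.28, and without replicate 3 of TN WT it was 0.314, both below the fold required. Over all alternatives its limma adjusted p was 0.000939 to 0.0627.

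*Acot2* (NM_134188), which hydrolyses long-chain acyl-CoA inside mitochondria, had 47.6, 40.3 and 40.6 TPM in RT WT and 25.3, 43.9 and 44.5 in TN WT. Among *Txnip*-/- libraries it had 52.9, 64.7 and 69.4 TPM at RT and 37.5, 44.6 and 42.5 at TN. The WT groups overlapped, with replicate 1 of TN WT far below the other 2, and the *Txnip*-/- groups did not. The log2 fold change was −0.21 (SE 0.18, limma adjusted p = 0.351) in WT and −0.57 (SE 0.18, limma adjusted p = 0.0217) in *Txnip*-/-. The call in *Txnip*-/- was lost without replicate 2 of RT *Txnip*-/- (−0.537, limma adjusted p = 0.0651), replicate 3 of RT *Txnip*-/- (−0.488, limma adjusted p = 0.0773) or replicate 1 of TN *Txnip*-/- (−0.499, limma adjusted p = 0.0765). Over all alternatives its limma adjusted p was 0.00448 to 0.0773.

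*Acot9* (NM_019736), the third mitochondrial enzyme, ranged from 35.9 to 44.2 TPM over all 12 libraries. Its RT WT libraries (43.9, 41.8 and 44.2 TPM) and TN WT libraries (43.7, 43.7 and 42.9) overlapped, and its mean in TN WT was 100.3% of that in RT WT (95% confidence interval of the log2 difference −0.11 to 0.12). The sign of this difference turned under both other scalings. In *Txnip*-/- the temperatures did not overlap, and the log2 fold change was −0.13 (SE 0.05, limma adjusted p = 0.0577). Over all alternatives it ran from −0.322 to −0.0871 (limma adjusted p of 0.00172 to 0.228) and was never called.

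Of the peroxisomal enzymes, *Acot4* (NM_134247) changed the most. It had 8.56, 5.81 and 6.25 TPM in RT WT and 1.86, 1.89 and 1.55 in TN WT, and in *Txnip*-/- 8.32, 11 and 6.23 TPM at RT and 1.96, 2.33 and 3.71 at TN. All TN libraries lay below all RT libraries. The log2 fold change was −1.49 (SE 0.20, limma adjusted p = 0.000265) in WT and −1.37 (SE 0.20, limma adjusted p = 0.000246) in *Txnip*-/-. In GENCODE, 615 of its exon bases are shared with the antisense gene *4732463B04Rik*.

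*Acot8* (NM_001362757) had 18.6, 20.8 and 21.4 TPM in RT WT and 13.6, 14.3 and 14.8 in TN WT. The *Txnip*-/- mice had 16.5, 16.5 and 18.1 TPM at RT and 14.7, 13.9 and 11.8 at TN. Neither genotype had overlapping temperatures, and the RT WT libraries were the highest. The log2 fold change was −0.48 (SE 0.08, limma adjusted p = 0.000941) in WT. In *Txnip*-/- it was −0.32 (SE 0.08, limma adjusted p = 0.0079), a fold of 0.802 and so just short of the 0.8 required, and it passed after upper-quartile normalization (−0.391), median centring (−0.507), with a pseudocount of 0.1 (−0.338) and in 4 of the fits that left out 1 library. *Acot8* shares 246 exon bases with *Snx21* on the opposite strand, whose own log2 fold changes were 0.13 and 0.19, neither called. The 246 bases are those of the GENCODE transcripts, and the spans that the deposited table gives for both genes share 3 bases. Multiplied by transcript length, the *Snx21* values amounted to 208% to 492% of those of *Acot8*. If *Snx21* reads covered the GENCODE overlap evenly and were counted without regard to strand, they would make up 33.7% to 79.9% of the *Acot8* value. With this amount taken off, an alternative chosen after the data were seen, the log2 fold change of *Acot8* was −1.17 in WT (limma adjusted p = 0.00162) and −0.91 in *Txnip*-/- (limma adjusted p = 0.00579), both called. How many *Snx21* reads the *Acot8* values hold was not tested. Over all alternatives the log2 fold change ran from −1.17 to −0.442 in WT and from −0.91 to −0.234 in *Txnip*-/-.

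*Acot6* (NM_172580) had 2.53 to 3.14 TPM in RT WT against 1.97 to 2.69 in TN WT, and 2.16 to 3.28 against 2.20 to 2.91 in *Txnip*-/-, with overlap between temperatures in both genotypes and log2 fold changes of −0.22 (SE 0.13) and −0.09 (SE 0.13). The first of these was called after median centring (−0.407, limma adjusted p = 0.0271), and over all alternatives its limma adjusted p was 0.0271 to 0.424. *Acot3* was below the testing level, with 0.311 to 0.586 TPM in RT WT and 0.156 to 0.231 in TN WT, and with 0.615 to 1.04 and 0.189 to 0.348 in *Txnip*-/-. Its exons overlap those of *4732463B04Rik* and, on its own strand, *Gm49366*. *Acot5* was listed at 0.032 to 0.174 TPM over all libraries.

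**Figure D2:**
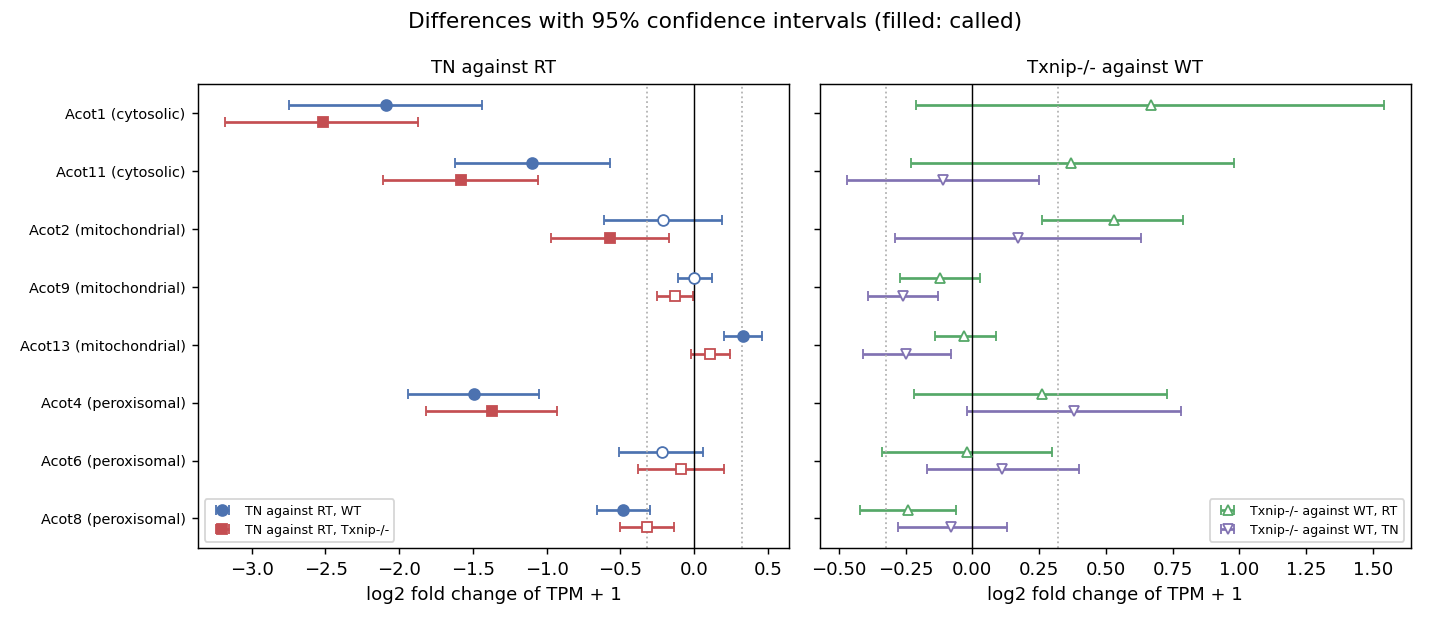
Log2 fold change of TPM + 1 (horizontal axis) of the 8 thioesterases tested, with 95% confidence intervals, for TN against RT in each genotype (left) and for *Txnip*-/- against WT at each temperature (right); filled symbols were called and dotted lines mark the fold limits. The left panel holds 9 filled symbols and the right panel none; *Acot1* was below the testing level at TN and has no TN symbol on the right.

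Within the cluster, neighbours thus differed in level and in response. *Acot1* amounted to 12.9% to 18.8% of the TPM of *Acot2* in RT WT and 11.7% to 30.9% in RT *Txnip*-/-, but to 1.73% to 2.47% in TN WT and 2.25% to 2.72% in TN *Txnip*-/-, with no overlap of the temperatures. Across the 12 libraries *Acot1* followed *Acot4* (r = 0.95) and *Acot11* (r = 0.88) more closely than it followed *Acot2* (r = 0.71) or *Acot6* (r = 0.47). After the group means were taken off, these became 0.55, 0.05, 0.41 and 0.04. They describe 12 libraries that share 4 group differences. The genes most like *Acot1* were *Cdc25a* (r = 0.976), *Acbd4* (0.967), which encodes an acyl-CoA binding protein, and *Nat8l* (0.966), the N-acetylaspartate synthase. *Acot4* was most like *Dagla* (0.972), *Cdc25a* (0.97) and *Mrap* (0.959). *Acot2* was most like the proteasome subunit gene *Psma5* (0.911), *Eif4ebp1* (0.885) and *Psma3* (0.877). *Acot8* was most like *Ccng2* (0.945), *Higd1b* (0.938) and *Hsp90aa1* (0.928), and *Acot13* most like *Tarsl2* (0.96), the mitochondrial outer membrane channel gene *Vdac3* (0.946) and *Prelp* (0.944).

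Summed over the family, the 10 members came to 453 ± 42.1 TPM (SD, n = 3) in WT and 497 ± 35.1 in *Txnip*-/- at RT, and to 426 ± 12.5 and 377 ± 26.2 at TN. The cytosolic pair, which leaves out the cytosolic *Acot7* (means of 22.4 and 21.6 TPM at RT and 28.5 and 27.9 at TN), made up 25.3% ± 6.5 (WT) and 30.1% ± 4.36 (*Txnip*-/-) of the sum at RT, and 11.6% ± 1.08 and 12.4% ± 2.03 at TN. In all 12 libraries the mitochondrial enzymes were the largest class, with 67.9% ± 5.93 and 64% ± 3.94 at RT and 84% ± 1.08 and 82.6% ± 1.81 at TN. The peroxisomal enzymes held 6.78% ± 0.569 and 5.9% ± 0.648 at RT and 4.36% ± 0.114 and 5.07% ± 0.337 at TN. The shares of the temperatures did not overlap in any class, except that the highest peroxisomal share of TN *Txnip*-/- (5.3%) lay above the lowest of RT *Txnip*-/- (5.15%). With *Acot13* counted as cytosolic, the mitochondrial share was 19.1% and 20.5% at RT and 19.1% and 20.7% at TN, so that the share of the class and its difference between temperatures depend on where *Acot13* is placed.

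**Figure D3:**
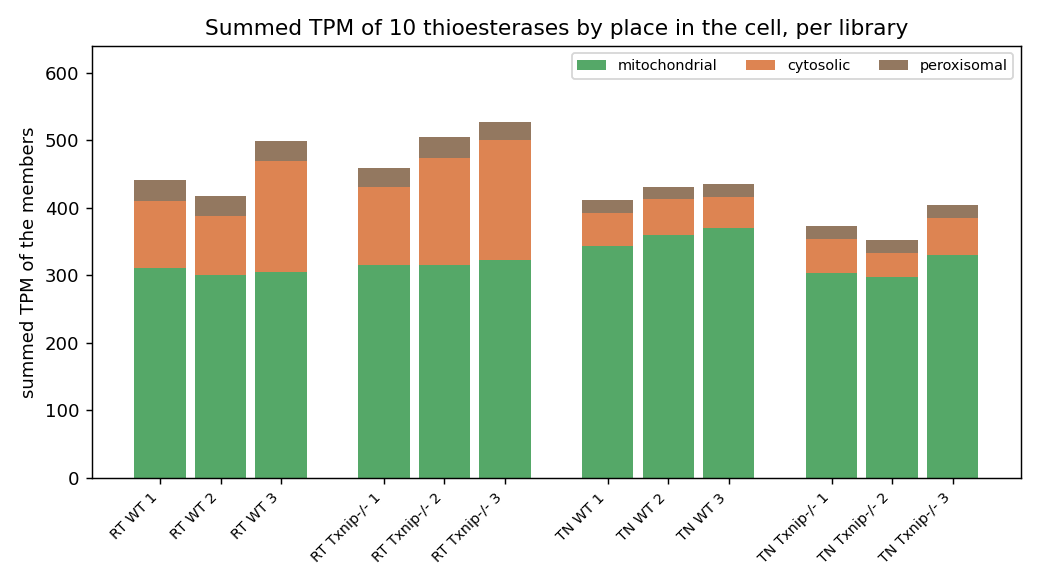
Summed TPM (vertical axis, from 0) of the mitochondrial, cytosolic and peroxisomal thioesterases in each of the 12 libraries. The cytosolic segment is 86.8 to 177 TPM in the RT libraries and 35.3 to 55.6 TPM in the TN libraries, while the mitochondrial segment stays between 298 and 370.5 TPM.

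The second comparison was that of *Txnip*-/- with WT at each temperature, tested on the 6 libraries of that temperature. None of the 8 members tested at RT was called, where 1.49% of all genes were called, and none of the 7 tested at TN, where 8.66% were. At an unadjusted limma p under 0.05 there were 2 members at RT and 2 at TN, against 16% and 25.6% of all genes. The groups did not overlap for 2 members at RT (22.6% of all genes) and for 3 at TN (31.1%). These comparisons use the same WT and *Txnip*-/- libraries as those of the temperatures.

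At RT, *Acot2* had the smallest p, with a log2 fold change of 0.53 (SE 0.11, 95% confidence interval 0.26 to 0.79, limma adjusted p = 0.077). All 3 RT *Txnip*-/- libraries lay above the 3 of RT WT (52.9 to 69.4 against 40.3 to 47.6 TPM). *Acot8* had the other separation, with 16.5 to 18.1 TPM in RT *Txnip*-/- and 18.6 to 21.4 in RT WT, a log2 fold change of −0.24 (SE 0.08, limma adjusted p = 0.198). For *Acot1* the log2 fold change was 0.67, but the 3 RT *Txnip*-/- libraries spread so widely that the interval ran from −0.21 to 1.54. *Acot11* (0.37, interval −0.23 to 0.98) and *Acot4* (0.26, interval −0.22 to 0.73) had the same sign, and *Acot6* (−0.02, SE 0.14), *Acot9* (−0.12, SE 0.06) and *Acot13* (−0.03, SE 0.05) lay below 0. Without 1 library, the values ran from 0.254 to 1.03 for *Acot1*, 0.189 to 0.668 for *Acot11* and 0.0772 to 0.441 for *Acot4*. In this comparison all 5 skeletal muscle markers tested were called higher in *Txnip*-/-, with *Ckm* at a log2 fold change of 2.66. Of 7 macrophage markers tested, 3 were called higher. The median of the 7 was 0.66 and the lowest was *Cd14* at 0.42. Of 10 brown adipocyte markers, with a median of −0.26, 2 were called lower, *Elovl3* (−1.52) and *Cox7a1* (−0.40). Their part in these values was not tested.

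At TN, *Acot9* passed the p threshold but not the fold, with 43.7, 43.7 and 42.9 TPM in TN WT and 36.3, 35.9 and 35.9 in TN *Txnip*-/- (log2 fold change −0.26, SE 0.06, limma adjusted p = 0.029, a fold of 0.835). The p threshold was missed without any 1 of the 6 libraries (limma adjusted p of 0.0662 to 0.102) and with the replicate block (limma adjusted p = 0.0712), and met under the other 6 alternatives (limma adjusted p of 0.00968 to 0.0344), with the fold short of the limit in each. The libraries of each group lay close together and apart from the other group. *Acot13* differed by a like amount, 272 to 283 TPM in TN WT against 218 to 251 in TN *Txnip*-/- (log2 fold change −0.25, SE 0.07, limma adjusted p = 0.0736). Its limma adjusted p over all alternatives was 0.0179 to 0.207, under 0.05 with all 12 libraries in 1 fit (0.0179) and on the authors' log-scale values (0.048), where the fold was also short of the limit. *Acot4* was the third without overlap, with 1.55 to 1.89 TPM in TN WT and 1.96 to 3.71 in TN *Txnip*-/- (log2 fold change 0.38, SE 0.17, limma adjusted p = 0.219). This ran from 0.185 (without replicate 3 of TN *Txnip*-/-) to 0.519 when 1 library was left out. The intervals of *Acot2* (−0.29 to 0.63), *Acot6* (−0.17 to 0.40), *Acot8* (−0.28 to 0.13) and *Acot11* (−0.47 to 0.25) all included 0 and, except for *Acot8*, also a fold past the limit. *Acot1*, not tested, had 1.00 to 1.16 TPM in TN *Txnip*-/- and 0.625 to 0.862 in TN WT. All 8 macrophage markers were called higher and 5 of 10 brown adipocyte markers lower in TN *Txnip*-/-, and their part in these values was not tested.

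The third comparison asked whether the genotype difference depended on temperature. No member was called for the interaction, where 0.00801% of all genes were called, which is *Txnip* itself. At an unadjusted limma p under 0.05 there was 1 member, *Acot13*, against 12.6% of all genes. Its genotype difference was 0.22 lower on the log2 scale at TN than at RT (interaction −0.22, SE 0.08, limma adjusted p = 0.317). *Acot1*, *Acot2* and *Acot11* had more negative log2 fold changes between temperatures in *Txnip*-/- than in WT, by an amount that was not distinguished from the spread, with interactions of −0.43 (interval −1.36 to 0.50), −0.36 (−0.92 to 0.21) and −0.49 (−1.23 to 0.26). Without 1 library these ran from −0.794 to −0.0199, −0.617 to −0.223 and −0.78 to −0.296. The call of *Acot2* in *Txnip*-/- alone, and those of *Acot8* and *Acot13* in WT alone, are therefore not shown to differ between genotypes.

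Genes that make, carry or use acyl-CoA were read beside the thioesterases. Of all genes tested, 6.39% were called lower at TN in WT and 8.27% in *Txnip*-/-, or 14.7% and 19.5% with median centring. Acyl-CoA synthetases, which form what the thioesterases cleave, were called lower at TN in 6 of 14 tested in WT, with none called higher. In *Txnip*-/- 6 of 14 were called lower and 1 was called higher. *Acsl1*, the main long-chain synthetase of fat, had log2 fold changes of −1.14 and −1.58, *Acsl5* of −0.94 and −1.25 and *Slc27a2* of −0.82 and −1.23. Of 7 genes of the carnitine shuttle, which brings acyl groups into mitochondria, 5 were called lower in each genotype. None was called higher in WT and 1 was called higher in *Txnip*-/-. The carnitine carrier *Slc25a20* had log2 fold changes of −0.72 and −1.05 and *Crat*, carnitine acetyltransferase, of −0.74 and −0.82. Of 16 genes of peroxisomal fatty acid handling, 7 were called lower in WT and 10 in *Txnip*-/-, with none called higher. The bifunctional enzyme *Ehhadh* (−2.79 and −2.18) and the thiolase *Acaa1b* (−1.81 and −2.17) led this list. The medians of the genes tested were −0.38, −0.70 and −0.22 for the 3 lists in WT and −0.33, −0.69 and −0.37 in *Txnip*-/-.

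Of 9 PPARα targets tested, 7 were called lower and 1 was called higher in WT. In *Txnip*-/- 6 were called lower and 2 were called higher. *Angptl4*, an inhibitor of lipoprotein lipase, was called higher in both (1.23 and 1.46). *Ehhadh* counts in this list too. Of 8 PPAR receptors and partners, *Pparg* was called higher (0.56) and *Rxrg* was called lower (−0.38) in WT. The coactivator *Ppargc1a* (−1.95) and *Rxrg* (−0.48) were called lower in *Txnip*-/-. Among 7 genes of CoA synthesis, calls were 2 higher and 2 lower in WT and 1 higher and 3 lower in *Txnip*-/-. *Coasy*, the last enzyme of the pathway, was called lower in both (−0.53 and −0.57). *Pctp*, whose protein binds ACOT13, was not called in any comparison. Of the other thioesterases, 6 of 11 were tested. The lysosomal palmitoyl-protein thioesterase *Ppt1* (0.52 and 0.71) and the cytosolic *Acot7* (0.34 and 0.36) were called higher at TN in both genotypes, beside a median gene at 0.18 and 0.15. *Them4* (−0.46) and *Lypla1* (−0.37) were called lower in *Txnip*-/-. *Acot10* and *Acot12* were below the testing level.

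**Figure D4:**
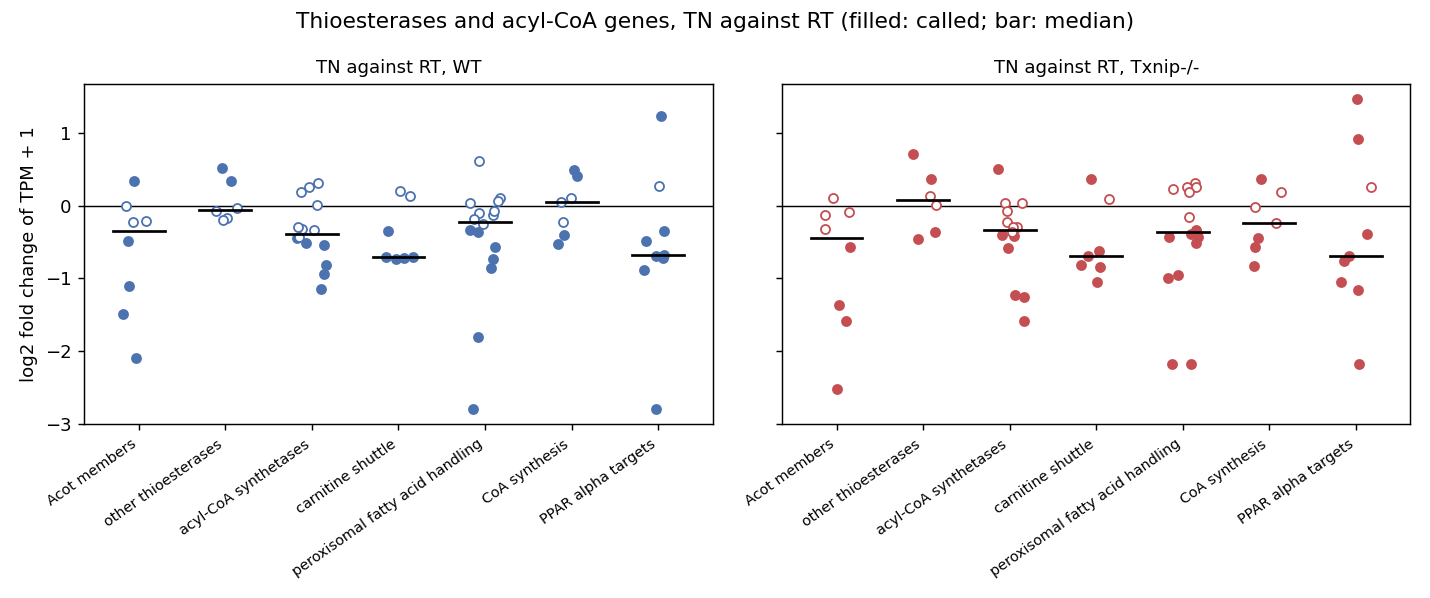
Log2 fold change of TPM + 1, TN against RT, for the 8 thioesterases tested and the tested genes of 6 other lists (horizontal axis) in WT (left) and *Txnip*-/- (right); each point is a gene, filled where called, and the bar is the median of the points. The lowest points of the thioesterases, *Acot1* at −2.09 and −2.52, lie near those of *Ehhadh* at −2.79 and −2.18.

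Between genotypes these genes were called in different numbers at RT and TN, as all genes were (1.49% and 8.66%). At RT only *Abcd2*, a peroxisomal fatty acid transporter, was called of all 7 lists (log2 fold change −0.67, limma adjusted p = 0.0284). At TN the called genes given here were *Acsl1* (−0.62), *Cpt1b* (−0.65), *Slc25a20* (−0.48), *Amacr* (−0.47), *Abcd2* (−0.37), *Pank1* (−0.88), *Coasy* (−0.43), *Plin5* (−0.56) and *Lypla1* (−0.33), all lower in *Txnip*-/-. The difference of the genotype effect between temperatures was called for none of them.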

How the data were processed

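BAT libraries (poly(A) RNA, NEBNext Ultra II RNA kit) were grouped by the genotype and temperature of their labels. Replicate numbers are those of the sample titles, whereas the sample descriptions number the RT libraries on from those at TN. Per the submitters' processing notes, the authors aligned reads to mm10 with STAR 2.7.5a, counted them with HOMER 4.11.1 and used DESeq2. The authors deposited TPM for all 12 libraries, used here, on 1 transcript per gene. Listed TPM reach 55.38% to 57.55% of the scaling total. The authors also deposited, per temperature, log-scale (log2) normalized values, used in an alternative only, by a transform that is not named, and their own fold changes and p-values, which were not used. There, *Acot8* and *Acot9* (2 of 10 members) stand for another transcript. Depth was 29.93 to 47.44 (1e6 reads) per library, median 37.52. TPM keep no counts, so counting error was not computed, and the p-values measure the spread between libraries taken as separate mice.

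Tests took genes whose TPM averaged 1 or more in the libraries fitted, on log2(TPM + 1), in R 4.3.3 with limma 3.58.1 (empirical Bayes with a trend) and Benjamini-Hochberg adjustment over all genes. Genotypes were compared on the 6 libraries of a temperature, and temperatures and the interaction on all 12 with 4 group means. In a simulation, 200 genes differed by a log2 step of 1. The fits recovered 84.5% (genotype, RT), 96.5% (genotype, TN), 92.5% (temperature, WT), 92.5% (temperature, *Txnip*-/-) and 86.5% (interaction). The 200 genes were drawn from those at a higher mean TPM than the tests required, which left out levels such as that of *Acot6*. Steps under 1 were not simulated. The members, the lists and the rule for named genes (all members, *Txnip*, up to 3 called genes of each list per comparison with the largest change, and the 3 genes most like the most abundant member and each called member) were chosen with earlier results of these data known. Outside the rule, genes are named for overlapping exons or shared windows, to account for the family (*Acot10*, *Acot12*) or a listed partner (*Pctp*), and, chosen after their values were seen, as called markers (*Elovl3*, *Cox7a1*, *Ckm*). A listed gene is left out of the text. Same-numbered WT and *Txnip*-/- libraries had deviations with an r of 0.297, −0.022 and 0.21 at RT and 0.042, 0.023 and −0.036 at TN, so the numbers were not taken as pairs. Alternatives were a pseudocount of 0.1, no filter, upper-quartile normalization, median centring, the replicate block, other sets of libraries, the log-scale values, each library left out and, added after the data were seen, *Fam151a* taken off *Acot11* and *Snx21* over the shared bases taken off *Acot8*. Transcripts and exons came from GENCODE M21 and promoter windows from RefSeq (8 of 10 members matched, not *Acot6* and *Acot13*), aligned with Biopython 1.88. Plots used matplotlib 3.10.9 (Python 3.11.15).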

Additional observations from a re-analysis of the deposited data

How the results depend on the processing

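The count of members called stayed at 0 for both genotype comparisons and the interaction under every alternative, and was 4 to 5 for temperature in WT and 3 to 5 in *Txnip*-/-. The lower expression of *Acot1*, *Acot4* and *Acot11* at TN was called in both genotypes under every alternative run. Of 533 values of single members under an alternative, 502 kept their sign and their call, 6 lost and 9 gained a call, and 16 turned in sign, none of these called either way. By scaling, *Acot9* in WT turned to −0.0471 (upper quartile) and −0.179 (median centring), and *Acot13* in *Txnip*-/- to −0.0785 (median centring). Under median centring the median gene moved from 0.18 to 0 in WT and from 0.15 to −0.04 in *Txnip*-/-, and the share of calls that were higher from 83.1% to 51.1% and from 78.9% to 48.5%. Without 1 library, signs turned within the ranges −0.108 to 0.11 (*Acot6*) and −0.0541 to 0.000761 (*Acot13*) for genotype at RT, −0.0916 to 0.303 (*Acot2*), −0.247 to 0.0778 (*Acot11*) and −0.137 to 0.00801 (*Acot8*) for genotype at TN, −0.346 to 0.0484 (*Acot2*) and −0.02 to 0.0183 (*Acot9*) for temperature in WT, and −0.0736 to 0.302 (*Acot4*) for the interaction.

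Over all genes, calls at RT numbered 178, against 44 without the filter, 100 with the replicate block, 272 with all 12 libraries in 1 fit and 2 to 159 without 1 library (31 without RT WT replicate 1, 2 without replicate 2, and 33, 87 and 25 without RT *Txnip*-/- replicate 1, 2 and 3). At TN they numbered 1116, against 621 without the filter and 456 to 1005 without 1 library (703 and 684 without TN WT replicate 1 and 3, and 456 and 464 without TN *Txnip*-/- replicate 1 and 2). The interaction had 1, against 4 with the block and 1 to 6 without 1 library (6 without RT WT replicate 1). The cause was not tested. The block, on numbers that do not pair the samples, changed no member's call, though *Acot9* at TN then missed the p threshold. Mitochondrial shares were 65.8% to 71.3% (RT WT), 61.8% to 65.4% (RT *Txnip*-/-), 83.4% to 84.3% (TN WT) and 81.5% to 83.1% (TN *Txnip*-/-) without 1 library, and 19.1%, 20.5%, 19.1% and 20.7% with *Acot13* as cytosolic. Between temperatures, calls over all genes were 4094 to 4754 in WT and 4303 to 5127 in *Txnip*-/- without 1 library. *Acot3* and *Acot5* were below the level tested, so no test of them is given here. The libraries of *Acot3* at TN lay below those at RT in both genotypes.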
